A study of Mus musculus with 12 samples.

Results

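The genes described here are 43 mouse genes of mitosis and of the spindle, chosen by name, and all 43 were found among the 15217 genes of the deposited table. The cells were NIH-3T3, a mouse fibroblast line labelled as wild type, and the assay was SLAM-seq. Cultures were left unlabelled or were given 4-thiouridine (4sU) at 200 or 800 µM for 2 h. 4sU is a uridine analogue that enters RNA made while it is present, and iodoacetamide treatment makes it read as C in the sequence, so that new RNA can be counted apart from old RNA. The treatment was done on isolated RNA in tubes at 37 °C for 1 h, or in methanol-fixed cells. The protocol also gives 50 °C for 30 min without naming a procedure, and this was taken as that of the fixed cells. The 3 doses and 2 procedures make 6 groups of 2 libraries, A and B. On that reading, fixation, reaction temperature and reaction time differ together between the procedures and cannot be told apart. The labels do not state whether A and B came from different cultures, so each p-value below measures no more than the spread between these samples, and that spread may be technical.

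Library totals ranged from 3629634 to 7762635 counts. All 14 fibroblast markers examined had a mean count of at least 10, with a summed level of 19404 to 21817 CPM in a library. CPM are counts scaled to a common library size. TMM factors are used in them, except for these cell type markers, which are scaled to the library total. The summed level of epithelial markers was at most 0.9 CPM, of endothelial markers at most 1.59 CPM, of leukocyte markers 3.05 to 10.0 CPM and of neural markers 3.93 to 12.1 CPM. One library stood apart: fixed cells at 800 µM, library A, had a TMM scaling factor of 0.835, against 0.926 to 1.15 in the other 11 libraries.

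Mitosis is driven by the cyclin-dependent kinase Cdk1 with its A and B cyclins, and by the Polo and Aurora kinases. The spindle checkpoint holds the anaphase-promoting complex (APC/C) back until each kinetochore is attached to microtubules; the APC/C then marks cyclin B and securin for destruction, separase opens cohesin, and the central spindle directs cytokinesis. Most of these genes are transcribed in late S phase, G2 and mitosis, under the DREAM, B-Myb and FoxM1 complexes. Their promoters commonly carry a cell cycle homology region, TTTGAA or a close variant, and CCAAT boxes bound by NF-Y. Many of the proteins and some of the mRNAs are short-lived, since the set is rebuilt in each cycle.

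RefSeq promoter windows of 300 bases (250 before to 50 after the start, GRCm38.p6) were at hand for 37 of the 43 genes. The exact letters TTTGAA, on either strand, occurred in the window of 29 of the 37 genes (78.4%), against 20.2% of 27025 genes with a window. CCAAT on either strand occurred in 28 (75.7%, against 41.1%), and both motifs in 25 (67.6%, against 7.97%). The 2 motifs can share a base where they overlap. A match describes the letters only. The windows of 5 genes are printed 5′ to 3′ on the gene's strand, with TTTGAA (or its reverse TTCAAA) and CCAAT (or its reverse ATTGG) in capitals. Cdk1, Plk1 and Cdc20 were chosen because they were higher in fixed cells than in tubes without 4sU, Ttk and Kif20b because they were lower. They lie at chr10:69352863-69353162 (minus strand), chr7:122159185-122159484 (plus), chr4:118437294-118437593 (minus), chr9:83834439-83834738 (plus) and chr19:34922108-34922407 (plus), all across the annotated transcription start.
Cdk1: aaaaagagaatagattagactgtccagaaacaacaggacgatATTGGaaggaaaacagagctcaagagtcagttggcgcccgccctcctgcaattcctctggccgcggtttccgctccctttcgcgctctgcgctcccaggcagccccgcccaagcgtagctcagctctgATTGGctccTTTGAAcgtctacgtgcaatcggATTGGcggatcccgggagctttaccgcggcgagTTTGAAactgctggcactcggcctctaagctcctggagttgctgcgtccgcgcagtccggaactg
Plk1: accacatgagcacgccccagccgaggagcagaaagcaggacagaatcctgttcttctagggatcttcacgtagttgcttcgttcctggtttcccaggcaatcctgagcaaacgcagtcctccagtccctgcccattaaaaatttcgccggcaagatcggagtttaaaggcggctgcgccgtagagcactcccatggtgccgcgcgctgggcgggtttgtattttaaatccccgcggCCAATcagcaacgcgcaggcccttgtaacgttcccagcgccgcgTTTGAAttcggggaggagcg
Cdc20: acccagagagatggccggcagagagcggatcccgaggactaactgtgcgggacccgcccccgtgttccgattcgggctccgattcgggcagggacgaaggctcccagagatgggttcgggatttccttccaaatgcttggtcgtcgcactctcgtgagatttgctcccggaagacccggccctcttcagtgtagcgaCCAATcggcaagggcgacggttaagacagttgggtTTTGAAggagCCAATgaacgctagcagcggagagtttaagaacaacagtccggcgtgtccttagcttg
Ttk: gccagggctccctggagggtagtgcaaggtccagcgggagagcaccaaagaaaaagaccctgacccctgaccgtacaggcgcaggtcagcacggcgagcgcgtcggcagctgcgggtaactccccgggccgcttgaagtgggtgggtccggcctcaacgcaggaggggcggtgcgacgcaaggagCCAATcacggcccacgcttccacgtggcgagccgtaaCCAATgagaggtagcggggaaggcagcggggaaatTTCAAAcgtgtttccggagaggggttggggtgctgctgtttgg
Kif20b: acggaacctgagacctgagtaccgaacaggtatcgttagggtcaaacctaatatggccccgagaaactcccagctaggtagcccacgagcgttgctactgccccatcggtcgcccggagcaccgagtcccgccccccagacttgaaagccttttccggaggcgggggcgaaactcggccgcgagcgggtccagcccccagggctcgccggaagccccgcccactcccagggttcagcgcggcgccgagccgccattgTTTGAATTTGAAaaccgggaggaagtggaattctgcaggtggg
In these windows, Cdk1 held 2 TTTGAA and 3 CCAAT motifs, and Plk1 1 of each. Cdc20 and Ttk each held 1 TTTGAA and 2 CCAAT motifs. Kif20b held TTTGAA directly repeated and no CCAAT. The genes with TTTGAA did not stand together in the comparison of procedures described next: the median log2 difference was 0.34 for the 29 genes with the motif (range −1.28 to 1.51) and 0.57 for the 8 without it (−0.02 to 1.36).

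Without 4sU, most of these genes stood higher in methanol-fixed cells than in tubes. The summed level of the 43 genes was 4299.5 and 4387.6 CPM in tubes (libraries A and B, in this order throughout) and 6074.6 and 6071.4 CPM in fixed cells. Of the 43 genes, 26 (60.5%) passed the edgeR quasi-likelihood test at a Benjamini-Hochberg (BH) adjusted p of 0.05, 23 higher and 3 lower in fixed cells. Over all 11080 genes tested, 31.4% passed, 16.2% higher and 15.2% lower. At an unadjusted p under 0.05 there were 27 of the 43, against 41.3% of all genes. The median log2 difference was 0.41 for the 43 genes and −0.01 for all genes tested, and 36 of the 43 lay above 0. In bulk libraries, an effect of the procedure on RNA, the share of cells in mitosis and RNA per cell cannot be told apart. All log2 differences below are from this fit, fixed cells minus tubes.

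**Figure D1:**
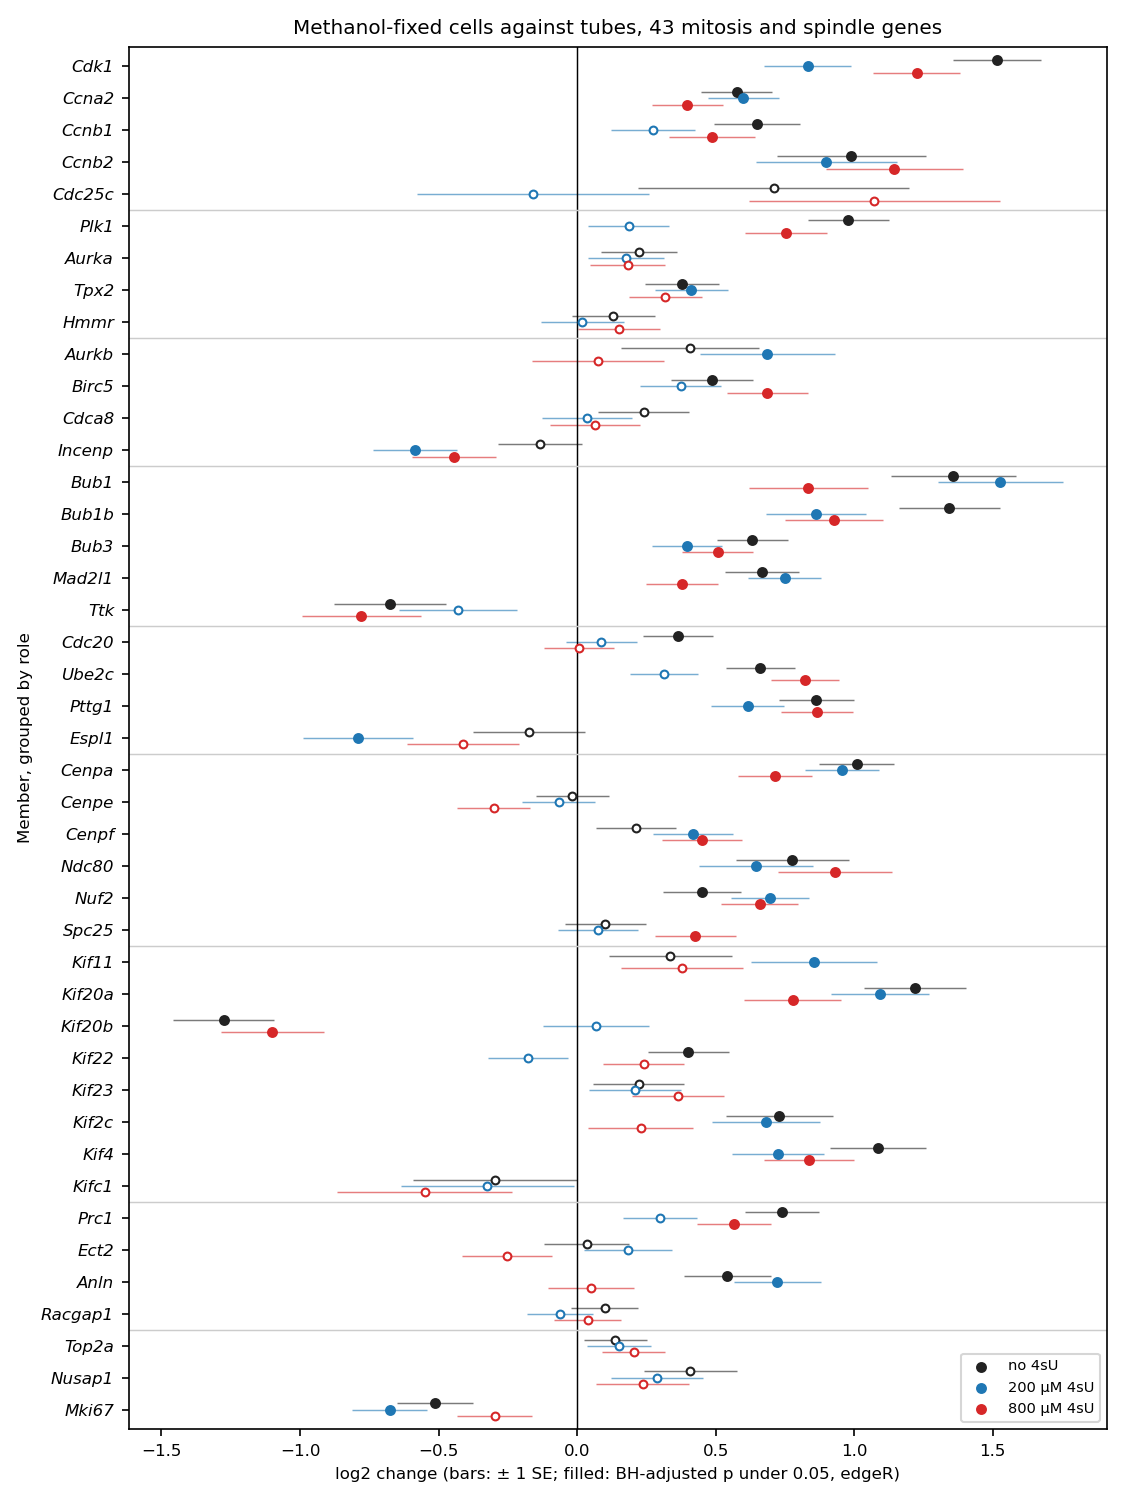
Log2 difference between methanol-fixed cells and tubes (x axis; bars, 1 SE) for each of the 43 genes, grouped by role, without 4sU (black), at 200 µM (blue) and at 800 µM (red); filled points passed the BH-adjusted threshold in edgeR, 2 libraries per group. Most points lie right of 0: 36, 34 and 35 of 43 genes at the 3 doses, with Ttk, Kif20b, Incenp, Espl1 and Mki67 holding the filled points left of 0.

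Among the engines of mitotic entry, 4 of 5 were higher in fixed cells. Cdk1, the kinase that drives entry, was at 194 and 216 CPM in tubes and 576 and 598 CPM in fixed cells. The fixed libraries lay well above both tube libraries, with a log2 difference of 1.52 (SE 0.16, BH-adjusted p = 4.68e-06) in edgeR, the highest of the 43. The B cyclin Ccnb1, which Cdk1 needs as its partner, was at 113 and 111 CPM in tubes and 184 and 168 CPM in fixed cells, a difference of 0.65 (SE 0.16). Ccnb2, the other B cyclin, was at 13.5 and 8.52 against 25.4 and 18.1 CPM (0.99, SE 0.27). Cyclin A2, Ccna2, acts from S phase into early mitosis and was at 133 and 117 against 181 and 192 CPM (0.58, SE 0.13). Cdc25c, a phosphatase that switches Cdk1 on, was at 5.29 and 2.78 CPM in tubes and 4.70 and 8.16 CPM in fixed cells; the groups overlapped and the difference did not pass (0.71, SE 0.49, BH-adjusted p = 0.288, in edgeR).

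The other mitotic kinases gave a mixed picture. Plk1, the Polo kinase of spindle poles and kinetochores, was at 94.3 and 125 CPM in tubes and 224 and 208 CPM in fixed cells, and its log2 difference of 0.98 (SE 0.15, BH-adjusted p = 9.44e-05) passed in edgeR. Aurka, the Aurora kinase of spindle poles, was at 93.1 and 102 against 114 and 114 CPM; the groups did not overlap, yet 0.22 (SE 0.14, BH-adjusted p = 0.227) did not pass in edgeR. Its activator Tpx2 was higher, at 144 and 116 against 169 and 169 CPM (0.38, SE 0.13). The spindle protein Hmmr gave 58.7 and 65.2 against 66.7 and 69.1 CPM and did not pass.

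The chromosomal passenger complex corrects wrong attachments, with Aurkb as its kinase and Incenp, Birc5 (survivin) and Cdca8 (borealin) as the subunits that place it. Only Birc5 of these 4 passed, at 277 and 325 CPM in tubes and 439.8 and 405 CPM in fixed cells (0.49, SE 0.15). Aurkb was at 29.4 and 21.2 against 30.4 and 36.1 CPM, Incenp at 120.3 and 157 against 142 and 111 CPM, and Cdca8 at 173 and 191 against 233 and 198 CPM. The difference between subunits of this complex was not itself tested.

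The spindle checkpoint held some of the widest differences, in both directions. Bub1, a checkpoint kinase at the kinetochore, was at 22.4 and 16.3 CPM in tubes and 51.3 and 47.2 CPM in fixed cells, and Bub1b (BubR1), part of the inhibitor of the APC/C, at 35.4 and 32.7 against 80.0 and 92.4 CPM. For both, each fixed library lay above both tube libraries, with log2 differences of 1.36 (SE 0.23, BH-adjusted p = 0.000214) and 1.34 (SE 0.18, BH-adjusted p = 3.9e-05) in edgeR. Their partner Bub3 was at 176 and 172 against 268 and 273 CPM (0.63, SE 0.13) and Mad2l1, which binds and holds Cdc20, at 67.9 and 60.7 against 99.4 and 104 CPM (0.67, SE 0.13). Ttk (Mps1), the kinase at the top of the checkpoint, went the other way, at 35.6 and 32.1 CPM in tubes and 18.2 and 24.0 CPM in fixed cells (−0.68, SE 0.20, BH-adjusted p = 0.0161, in edgeR).

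Of the 4 genes of anaphase onset, 3 were higher. Pttg1 (securin), the inhibitor of separase, was at 75.3 and 77.5 CPM in tubes and 141 and 137 CPM in fixed cells (0.86, SE 0.13, BH-adjusted p = 0.000119, in edgeR). Ube2c, the ubiquitin-conjugating enzyme of the APC/C, was at 216 and 221 against 346 and 346 CPM (0.66, SE 0.12), and Cdc20, the activator of the APC/C, at 289 and 278 against 358 and 373 CPM (0.37, SE 0.13, BH-adjusted p = 0.0358, in edgeR). Espl1 (separase) itself was at 25.3 and 24.4 against 23.1 and 21.0 CPM and did not pass.

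At the kinetochore, Cenpa, the histone H3 variant that marks centromeres, was at 116 and 101 CPM in tubes and 202 and 234 CPM in fixed cells (1.01, SE 0.14, BH-adjusted p = 3.55e-05, in edgeR). Of the Ndc80 complex, which binds microtubules, Ndc80 was at 25.0 and 26.2 against 42.8 and 44.9 CPM (0.78, SE 0.20) and Nuf2 at 53.2 and 47.2 against 71.8 and 65.3 CPM (0.45, SE 0.14); both passed. Spc25, of the same complex, was at 67.4 and 67.4 against 71.8 and 72.8 CPM and did not pass. The outer kinetochore protein Cenpf (113 and 117 against 133 and 134 CPM) and the kinetochore motor Cenpe (99.1 and 110.2 against 97.5 and 109 CPM) did not pass either. Cenpe values of the 2 procedures overlapped, with a log2 difference of −0.02 (SE 0.13).

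The kinesin motors split as well: 4 of 8 were higher and 1 lower. Kif20a (MKLP2), which carries the passenger complex to the central spindle, was at 16.4 and 15.1 CPM in tubes and 33.1 and 40.0 CPM in fixed cells, and the chromokinesin Kif4 at 26.0 and 25.2 against 57.3 and 51.5 CPM. Their log2 differences were 1.22 (SE 0.18) and 1.09 (SE 0.17). The microtubule depolymerase Kif2c (MCAK; 22.4 and 22.6 against 40.4 and 34.4 CPM; 0.73, SE 0.19) and the chromokinesin Kif22 (54.4 and 55.9 against 73.5 and 72.3 CPM; 0.40, SE 0.15) were also higher. Kif20b (MPP1), a kinesin of late mitosis and cytokinesis, had the lowest log2 difference of the 43. It was at 66.9 and 63.1 CPM in tubes and 27.1 and 26.6 CPM in fixed cells, a difference of −1.28 (SE 0.18, BH-adjusted p = 5.68e-05) in edgeR. Kif11 (Eg5), which pushes spindle poles apart, was at 32.2 and 26.6 against 33.8 and 40.1 CPM, and did not pass. Kif23 (MKLP1), a motor of the central spindle, was at 42.6 and 51.9 against 57.5 and 53.1 CPM, and the minus-end motor Kifc1 had a log2 difference of −0.30 (SE 0.30); neither passed.

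In the central spindle group, the microtubule bundler Prc1 was at 154 and 162 CPM in tubes and 276 and 252 CPM in fixed cells (0.74, SE 0.13), and Anln (anillin), a scaffold of the contractile ring, at 61.6 and 64.8 against 84.9 and 99.2 CPM (0.54, SE 0.16). The cytokinesis factor Ect2 (78.2 and 64.6 against 68.6 and 77.2 CPM) and its partner Racgap1 (162 and 179.8 against 188 and 178 CPM) did not pass. Of the genes of chromosome structure and surface, Mki67, the proliferation antigen that coats mitotic chromosomes, was lower in fixed cells, at 86.9 and 92.0 CPM in tubes and 65.4 and 60.1 CPM in fixed cells (−0.51, SE 0.14, BH-adjusted p = 0.00819, in edgeR). Top2a, the topoisomerase that untangles sister chromatids, was at 574 and 554 against 610.3 and 631 CPM, and the microtubule-binding Nusap1 at 40.9 and 54.7 against 58.2 and 69.1 CPM; neither passed. Mki67, Top2a and Ccnb1, each in common use as a proliferation marker, gave a fall, no call and a rise in the same libraries.

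Of the 26 calls, 15 remained under every alternative fit and with each library left out in turn: Bub1, Bub1b, Bub3, Ccna2, Ccnb1, Cdk1, Cenpa, Kif20a, Kif20b, Kif4, Mad2l1, Plk1, Prc1, Pttg1 and Ube2c. Of the other 11, Cdc20 and Kif22 were lost with each of the 4 libraries left out in turn, and Anln, Birc5, Ccnb2, Kif2c, Mki67, Ndc80, Nuf2, Tpx2 and Ttk with 1 to 3 of them. When libraries were scaled on the 3693 genes whose new-to-total ratio was lowest, this scaling moved the median of all genes to −0.25. Of the 43 genes, 19 then passed, 16 higher and 3 lower, and the median of the 43 was 0.17. A change of scaling moves all genes by about the same amount, so it cannot test whether the 43 lie above the rest. The share of all genes called under this scaling is not given here. TMM factors were 1.02 to 1.15 in tubes and 0.835 to 1.01 in fixed cells. Longer genes tended to lie lower in fixed cells, with a Spearman correlation between deposited length and log2 difference of −0.42 across the 11080 genes and −0.25 across the 43 (points share libraries and scaling). In the labelled libraries, described next, this correlation was −0.38 across all genes and −0.001 across the 43 at 200 µM. At 800 µM it was −0.45 and −0.27. The part of length in the difference between procedures was not tested.

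The same comparison was made in the labelled libraries, which are other libraries than those without 4sU, and was chosen after the data were seen. At 200 µM, 22 of the 43 genes passed (51.2%, against 32.3% of all genes tested), 19 higher and 3 lower (14.6% and 17.8% of all genes), with a median of 0.30 against −0.07 for all genes. At 800 µM, 23 passed (53.5%, against 35.1%), 20 higher and 3 lower (16.8% and 18.3% of all genes), with a median of 0.38 against −0.06. At an unadjusted p under 0.05 there were 25 of the 43 at 200 µM (42.3% of all genes) and 28 at 800 µM (44.8%). In all, 13 genes were called higher at all 3 doses, 30.2% of the 43, against 9.08% of all genes tested. These 13 are Cdk1, Ccna2, Ccnb2, Bub1, Bub1b, Bub3, Mad2l1, Cenpa, Kif20a, Kif4, Ndc80, Nuf2 and Pttg1, which include 4 of the 5 checkpoint genes. With scaling on the low-ratio genes 8 of the 13 were kept at all 3 doses, without Ccna2, Bub3, Mad2l1, Ndc80 and Nuf2. With each library left out in turn 7 were kept at all 3 doses: Cdk1, Bub1, Bub1b, Cenpa, Kif20a, Kif4 and Pttg1. Of the checkpoint genes, Bub1 and Bub1b were kept under both.

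Single genes departed from this from dose to dose. Cdk1 was at 277 and 271 CPM in tubes and 420.3 and 556 CPM in fixed cells at 200 µM, and at 230.3 and 227 against 619.7 and 451 CPM at 800 µM, so fixed cells stood above tubes in every library at every dose. Kif20b was lower in fixed cells without 4sU and at 800 µM (−1.10, SE 0.19, BH-adjusted p = 0.000223, in edgeR), but at 200 µM its tube libraries were at 27.1 and 18.8 CPM and its fixed libraries at 25.8 and 21.9 CPM (0.07, SE 0.19, BH-adjusted p = 0.815, in edgeR). Plk1 passed without 4sU and at 800 µM (0.75, SE 0.15) and not at 200 µM (123 and 114 against 126 and 145 CPM; 0.19, SE 0.15, BH-adjusted p = 0.356, in edgeR). Incenp was called lower in fixed cells at both doses of 4sU (−0.59, SE 0.15, at 200 µM and −0.45, SE 0.15, at 800 µM), with 127 and 130.1 CPM in tubes and 92.8 and 95.7 CPM in fixed cells at 800 µM. Espl1 was called lower at 200 µM, with 30.8 and 25.3 CPM in tubes and 14.4 and 17.9 CPM in fixed cells (−0.79, SE 0.20). Not called without 4sU but called higher with it were Aurkb and Kif11 at 200 µM (0.69, SE 0.24, and 0.86, SE 0.23), Spc25 at 800 µM (0.43, SE 0.15) and Cenpf at both doses (0.42, SE 0.15, at 200 µM and 0.45, SE 0.14, at 800 µM). Aurkb at 200 µM was at 17.0 and 29.6 CPM in tubes and 30.7 and 45.2 CPM in fixed cells, and Kif11 at 15.1 and 22.9 against 31.7 and 37.7 CPM. Whether these differences changed with 4sU is the test of the response to 4sU between procedures, given further on. No member passed in it in this edgeR fit. Kif20b at 200 µM was called by DESeq2, and by edgeR with no filter or with only the groups compared. Of the 43 genes, 11 passed at no dose in this fit, though some did with a library left out (Cdc25c and Kif23 at 800 µM without fixed library B): Aurka, Cdc25c, Cdca8, Cenpe, Ect2, Hmmr, Kif23, Kifc1, Nusap1, Racgap1 and Top2a.

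At 200 µM, 14 genes passed without tube library A and 13 without fixed library B. At 800 µM, 18 passed without the fixed library A that stands apart. Under the scaling on low-ratio genes the calls split into 13 higher and 5 lower at 200 µM, and into 13 higher and 8 lower at 800 µM. That scaling moved the all-gene medians to −0.29 and −0.34 and the medians of the 43 genes to 0.08 and 0.09. The shares of all genes called higher and lower under it are not given here, so these splits are not read as a result about the 43 genes.

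The second question was how the levels of these genes differed between libraries with and without 4sU for 2 h. Few passed, and each that did was lower with 4sU. The labelled libraries also hold converted RNA, and the part of conversion in these differences was not tested. In tubes at 200 µM, 3 of 43 (6.98%) passed, all lower, against 3.75% of all genes tested (2.36% higher and 1.39% lower). In tubes at 800 µM 1 passed (2.33%), against 1.87% of all genes (0.912% higher and 0.957% lower). In fixed cells, 1 passed at 200 µM (2.33%), against 0.812% of all genes (0.244% higher and 0.569% lower). At 800 µM in fixed cells 3 passed (6.98%), again all lower, against 2.66% of all genes (0.776% higher and 1.89% lower). At an unadjusted p under 0.05 there were 11, 11, 12 and 12 of the 43 in these comparisons in turn, against 20.8%, 17.6%, 12.6% and 20.1% of all genes. The 2 doses of a procedure share its libraries without 4sU. Together the calls name 6 genes: Kif20b, Ttk, Ect2, Plk1, Cdc20 and Cenpe.

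**Figure D2:**
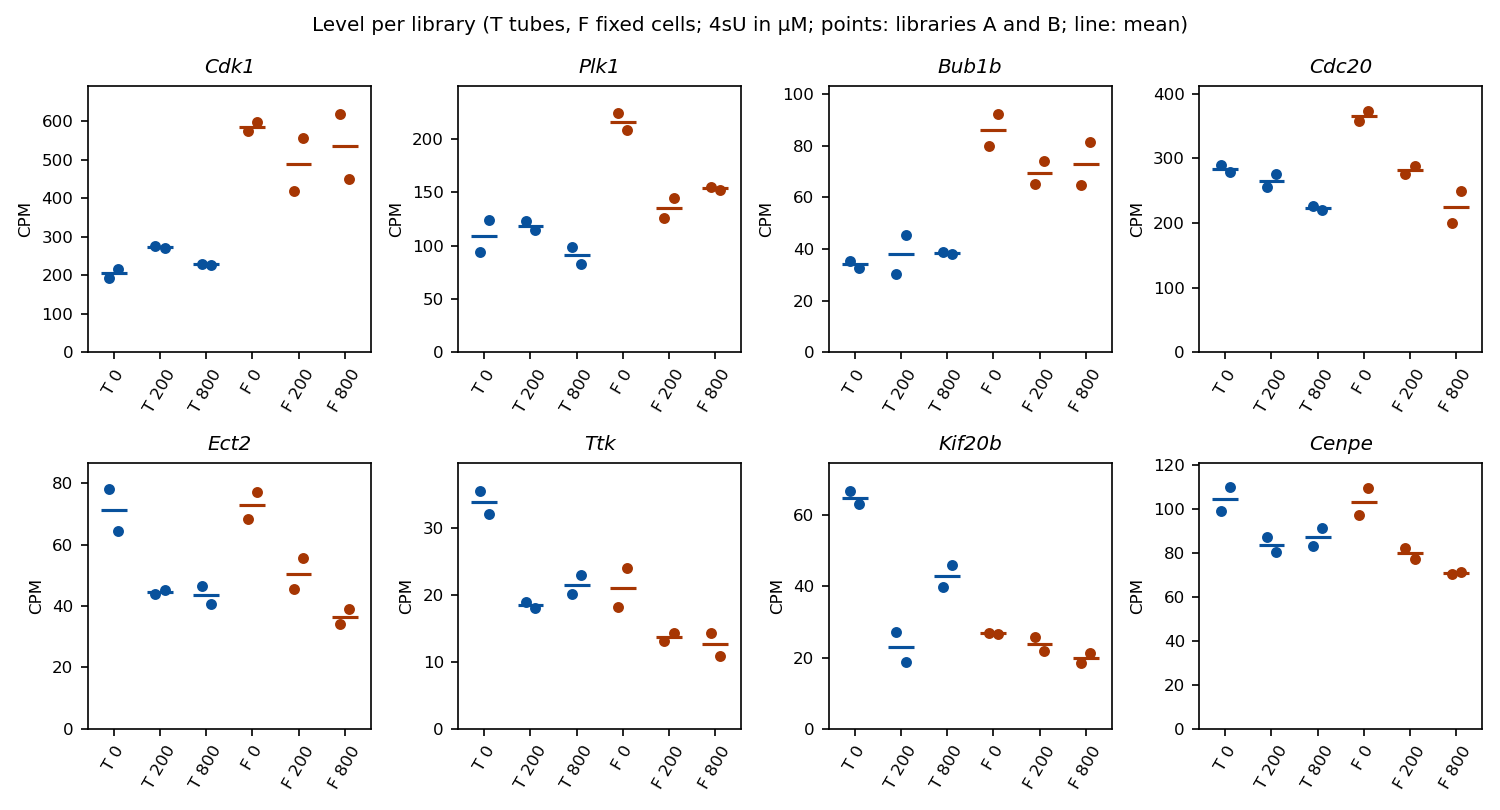
Level in CPM (y axis, from 0) of 8 genes in each of the 12 libraries, by procedure (T, tubes, blue; F, fixed cells, brown) and 4sU dose in µM; points are libraries A and B and lines their mean. Cdk1, Plk1 and Bub1b stand higher in fixed cells without 4sU, while Ect2, Ttk and Cenpe have their lowest means in fixed cells at 800 µM and Kif20b is high only in tubes without 4sU or at 800 µM.

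Kif20b moved furthest. In tubes it was at 66.9 and 63.1 CPM without 4sU, 27.1 and 18.8 CPM at 200 µM and 39.9 and 46.0 CPM at 800 µM, so the higher dose lay between the others. The fall at 200 µM was −1.51 (SE 0.19, BH-adjusted p = 0.000358) in edgeR, and it was the one call of the 4 comparisons that stood under every alternative and with each library left out. At 800 µM the change was −0.60 (SE 0.17, BH-adjusted p = 0.0855) in edgeR. In fixed cells Kif20b was at 27.1 and 26.6 CPM without 4sU, 25.8 and 21.9 CPM at 200 µM and 18.5 and 21.4 CPM at 800 µM, with no change that passed.

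Ect2, which is needed for cytokinesis, was called in 3 of the 4 comparisons. In tubes it was at 78.2 and 64.6 CPM without 4sU, 43.9 and 45.1 CPM at 200 µM and 46.4 and 40.9 CPM at 800 µM. In fixed cells it was at 68.6 and 77.2 CPM without 4sU, 45.7 and 55.6 CPM at 200 µM and 34.1 and 39.0 CPM at 800 µM. All 8 labelled libraries lay below all 4 unlabelled ones. The log2 changes in edgeR were −0.68 (SE 0.16, BH-adjusted p = 0.0285) and −0.71 (SE 0.16, BH-adjusted p = 0.0272) in tubes, and −0.53 (SE 0.16, BH-adjusted p = 0.141) and −0.99 (SE 0.16, BH-adjusted p = 0.00279) in fixed cells. With any 1 of the 4 libraries left out, neither tube comparison kept Ect2, and in fixed cells at 800 µM it was lost without the unlabelled library B.

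Ttk was at 35.6 and 32.1 CPM without 4sU in tubes, 18.9 and 18.1 CPM at 200 µM and 20.1 and 23.0 CPM at 800 µM. In fixed cells it was at 18.2 and 24.0 CPM without 4sU, 13.1 and 14.4 CPM at 200 µM and 14.4 and 10.9 CPM at 800 µM. Within each procedure the labelled libraries lay below both unlabelled ones, but only the change at 200 µM in tubes passed, at −0.87 (SE 0.21, BH-adjusted p = 0.0292) in edgeR, and it was lost when any 1 of the 4 libraries was left out. The log2 value was −0.65 in tubes at 800 µM (BH-adjusted p = 0.102 in edgeR), and in fixed cells −0.62 at 200 µM and −0.75 at 800 µM (BH-adjusted p = 0.203 and 0.0668).

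Plk1 fell in fixed cells at 200 µM, from 224 and 208 CPM without 4sU to 126 and 145 CPM (−0.68, SE 0.14, BH-adjusted p = 0.0337, in edgeR). At 800 µM it was at 155 and 152 CPM (−0.49, SE 0.15, BH-adjusted p = 0.0701, in edgeR). In tubes it was at 94.3 and 125 CPM without 4sU, 123 and 114 CPM at 200 µM and 99.1 and 83.2 CPM at 800 µM, and these groups overlapped. The call at 200 µM was lost with each library of the comparison left out.

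Cdc20 and Cenpe fell in fixed cells at 800 µM. Cdc20 was at 358 and 373 CPM without 4sU, 276 and 289 CPM at 200 µM and 199.9 and 249 CPM at 800 µM, a change of −0.70 (SE 0.13, BH-adjusted p = 0.00648) in edgeR at the higher dose. Cenpe was at 97.5 and 109 CPM without 4sU, 82.3 and 77.4 CPM at 200 µM and 70.4 and 71.3 CPM at 800 µM, with a change of −0.55 (SE 0.13, BH-adjusted p = 0.0346) in edgeR. In tubes, Cdc20 was at 289 and 278 CPM without 4sU, 255 and 276 CPM at 200 µM and 227 and 220.3 CPM at 800 µM. Cenpe in tubes was at 99.1 and 110.2 CPM without 4sU, 87.1 and 80.3 CPM at 200 µM and 83.3 and 91.4 CPM at 800 µM. No change of either passed in tubes (−0.34 and −0.26 at 800 µM). Both calls were lost without the fixed 800 µM library A that stands apart, and without either unlabelled fixed library.

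**Figure D3:**
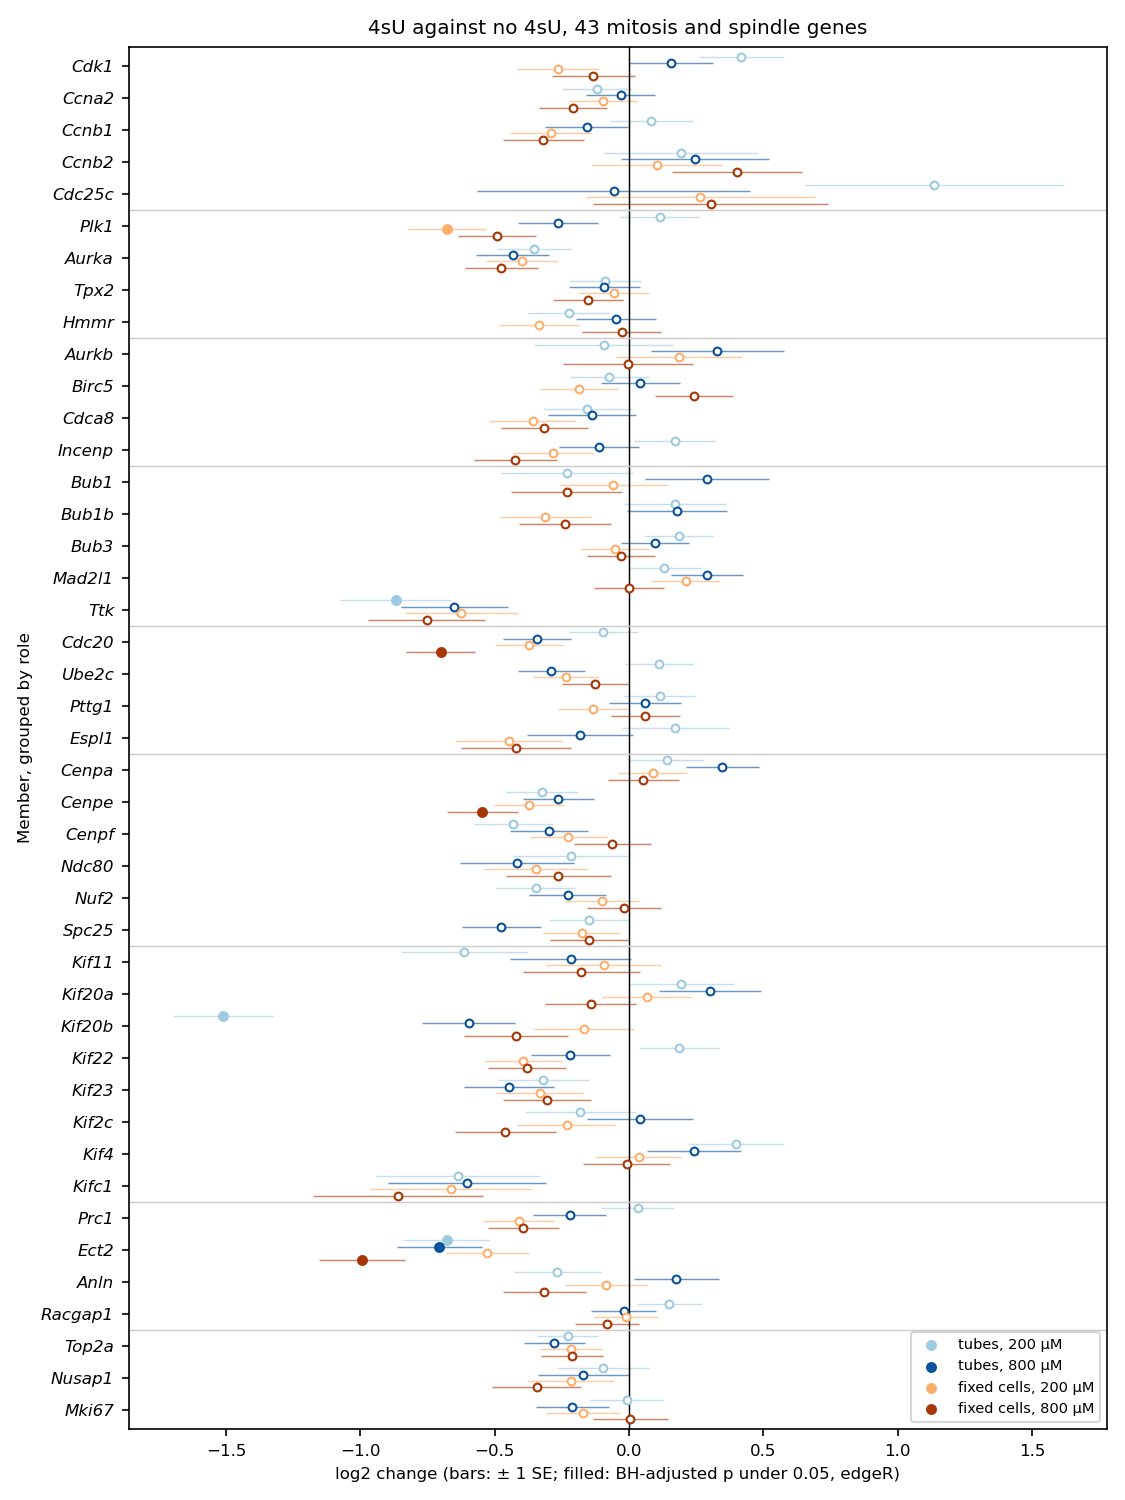
Log2 change with 4sU against no 4sU (x axis; bars, 1 SE) for each of the 43 genes, grouped by role, in tubes (blue) and fixed cells (orange and brown) at 200 and 800 µM; filled points passed the BH-adjusted threshold in edgeR, 2 libraries per group. The 8 filled points, 1 each for Plk1, Ttk, Cdc20, Cenpe and Kif20b and 3 for Ect2, all lie left of 0.

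Beyond these 6 genes no member passed in this fit, and most values lay below 0. With other scaling or filters, or only the groups compared, further members passed. These were Cenpf in tubes at 200 µM, Spc25 in tubes at 800 µM, Cdca8 in fixed cells at 200 µM and Incenp in fixed cells at 800 µM. Kif22 and Prc1 passed in fixed cells at both doses, and Aurka in tubes at 800 µM and in fixed cells at both doses. Cdc25c passed in tubes at 200 µM in the other direction, with a mean of 8.75 CPM against 4.03 CPM without 4sU. The median log2 change of all 43 genes was −0.10 in tubes at 200 µM (all genes tested 0.03), −0.16 in tubes at 800 µM (0.03), −0.22 in fixed cells at 200 µM (0.00) and −0.21 in fixed cells at 800 µM (0.00). Below 0 lay 25, 29, 36 and 36 of the 43, against 46.5%, 46.4%, 50.3% and 50.1% of all genes tested. With scaling on the low-ratio genes the medians were −0.21, −0.26, −0.31 and −0.36 for the 43 genes and −0.08, −0.08, −0.09 and −0.14 for all genes. Aurka was at 93.1 and 102 CPM in tubes without 4sU and 71.7 and 72.9 CPM at 800 µM. In fixed cells Aurka was at 114 and 114 against 90.3 and 74.0 CPM. The groups did not overlap, but −0.43 (SE 0.14, BH-adjusted p = 0.112) and −0.48 (SE 0.14, BH-adjusted p = 0.0656) did not pass in this edgeR fit. The log2 values at 800 µM were −0.28 (SE 0.11) in tubes and −0.21 (SE 0.11) in fixed cells for Top2a. For Mki67 they were −0.21 (SE 0.14) and 0.01 (SE 0.14). Ccnb2, Mad2l1 and Cenpa, with changes of 0.25, 0.29 and 0.35 in tubes and 0.40, 0.00 and 0.05 in fixed cells at 800 µM, lay on or above 0 without passing. Kif11 was at 32.2 and 26.6 CPM without 4sU and 15.1 and 22.9 CPM at 200 µM in tubes (−0.61, SE 0.24, BH-adjusted p = 0.142, in edgeR). Cdc25c, at most 11.1 CPM in a library, passed in no comparison of this fit; with no filter on low counts it passed in tubes at 200 µM and in fixed cells against tubes at 800 µM, and in the latter also without tube library B or fixed library B.

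Whether a response to 4sU differed between procedures was tested directly. None of the 43 genes passed in edgeR (0 at 200 µM and 0 at 800 µM), as none of the 11080 genes did. At an unadjusted p under 0.05 there were 7 members at 200 µM (8.96% of all genes) and 1 at 800 µM (5.90%), and DESeq2 called 1 member, Kif20b, at 200 µM and 0 at 800 µM. With no filter, or with only the groups compared, edgeR also called Kif20b at 200 µM. At 200 µM the interaction was 1.34 (SE 0.26, BH-adjusted p = 0.147) for Kif20b, the highest of the 43, −0.87 (SE 0.64, BH-adjusted p = 0.721) for Cdc25c, the lowest, and −0.79 (SE 0.21, BH-adjusted p = 0.284) for Plk1, in edgeR. The step from 200 to 800 µM gave 0 calls in each procedure in edgeR, with 8 members at an unadjusted p under 0.05 in tubes (8.91% of all genes) and 3 in fixed cells (7.87%). DESeq2 called 1 in tubes, Kif20b, whose edgeR value was 0.91 (SE 0.19, BH-adjusted p = 0.175), and 0 in fixed cells. With no filter, edgeR called Kif20b in tubes as well.

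Genes around the 43 were read from 7 lists. Among 20 genes of mitotic entry and its brakes, Cdkn1a, which codes for the cyclin-dependent kinase inhibitor p21, rose in all 4 comparisons with 4sU. It was at 117 and 87.0 CPM in tubes without 4sU, 272 and 245 CPM at 200 µM and 286 and 257 CPM at 800 µM. In fixed cells it was at 142 and 135 CPM without 4sU, 251 and 271 CPM at 200 µM and 255 and 332 CPM at 800 µM. Every labelled library lay above all unlabelled ones, and the changes at 800 µM were 1.42 (SE 0.16, BH-adjusted p = 9.7e-05) in tubes and 1.09 (SE 0.16, BH-adjusted p = 0.00123) in fixed cells, in edgeR. Wee1, the kinase that holds Cdk1 off, fell in fixed cells from 37.9 ± 1.62 CPM (SD, n = 2) to 18.7 ± 2.05 CPM at 200 µM and 19.9 ± 5.49 CPM at 800 µM, with log2 changes of −1.02 and −0.92. The kinase inhibitor Cdkn2d fell in tubes at 800 µM (−1.01) and in fixed cells at both doses (−1.23 and −0.97). The phosphatase gene Cdc25a fell in tubes at 800 µM (−0.61) and Ccng2 in fixed cells at 800 µM (−1.58).

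In the list of 26 centrosome and spindle pole genes, Ckap2l and Numa1, a microtubule-associated protein and the anchor of dynein at spindle poles, fell in both tube comparisons and in fixed cells at 800 µM. Their log2 changes were −0.66, −0.87 and −0.70 for Ckap2l and −0.94, −0.78 and −0.78 for Numa1. Cep152, a centriole duplication factor, rose in tubes at 200 µM (0.96). Of 30 other kinetochore genes, only Knl1, the kinetochore scaffold for Bub1, was called with 4sU (−1.05 in tubes at 200 µM). Of 22 condensin and cohesin genes, Smc4 fell in tubes at 200 µM (−0.67) and Sgo2a, the protector of centromeric cohesin, in fixed cells at 800 µM (−1.22). Of 17 APC/C genes, the activator Fzr1 (−0.75) and the inhibitor Fbxo5 (−0.60) fell and the subunit Anapc16 rose (0.60), all in fixed cells at 800 µM. Of 15 transcription regulators, Nfyc, a subunit of NF-Y, rose in tubes at 200 µM (0.74) and Lin9, of the DREAM and B-Myb complexes, fell in fixed cells at 800 µM (−0.77).

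Between procedures without 4sU, most of these lists had calls in both directions, several at a share near that of all genes tested (16.2% higher and 15.2% lower). The kinetochore list had 6 of 30 genes higher and 3 lower in fixed cells, the APC/C list 4 of 17 higher and no gene lower, condensin and cohesin 3 of 22 higher and 2 lower, and the centrosome list 5 of 26 higher and 3 lower. The transcription regulators had 2 of 15 higher and 1 lower, the entry list 5 of 20 higher and 2 lower, and the G1 cyclins and kinases 1 of 12 higher and 4 lower. Higher were Oip5, which helps load Cenpa (1.46), the condensin subunit Ncaph (1.23), Cks1b (0.89) and Anapc11 (0.85). Cdkn1a was higher in fixed cells as well (0.445, SE 0.158, BH-adjusted p = 0.0389, in edgeR). Lower were the cohesin loader Nipbl (−1.28), the G1 kinase Cdk6 (−0.80) and Foxm1 (−0.40), a transcription factor of the mitotic genes, at 135 and 126 CPM in tubes and 108 and 90.0 CPM in fixed cells.

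The deposited new-to-total ratio is the estimated share of a gene's RNA made during the 2 h of labelling. Averaged over the 8 labelled libraries it ran from 14.3% for Pttg1 to 88.0% for Kifc1, with 8 genes over 70%, 5 under 30% and 30 between. No ratio of libraries without 4sU was used, so these values have no unlabelled background beside them.

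**Figure D4:**
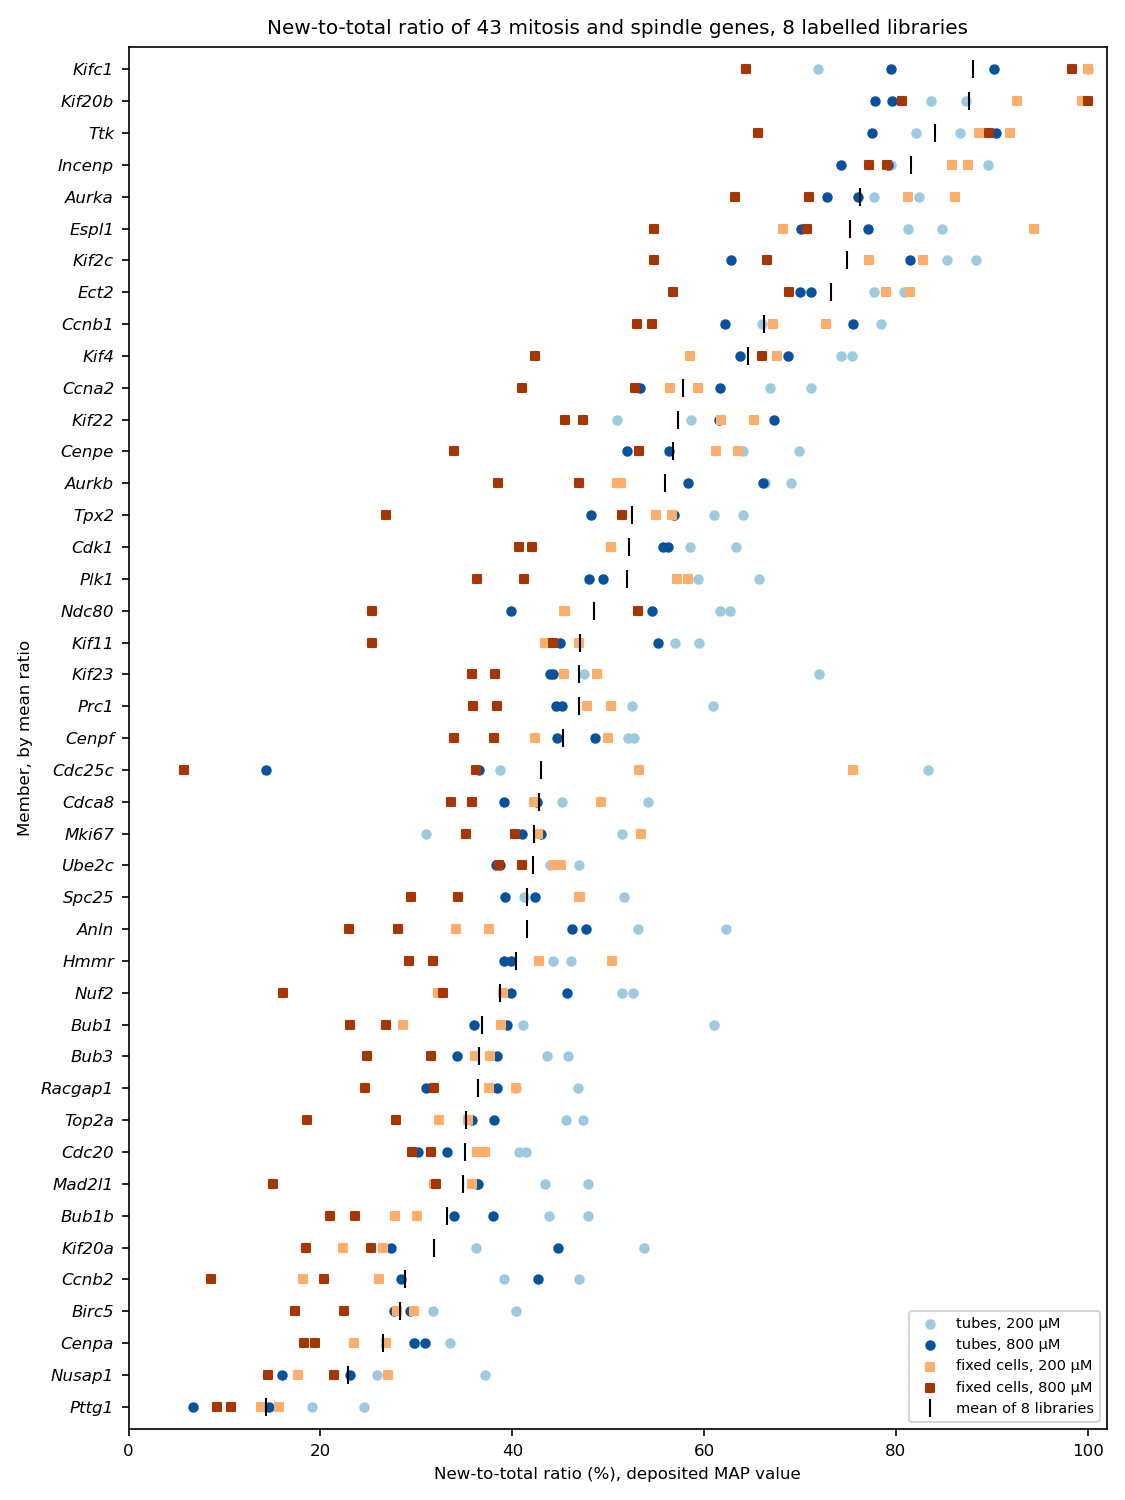
New-to-total ratio in percent (x axis; deposited maximum a posteriori value) of each of the 43 genes in the 8 labelled libraries, in tubes (circles) and fixed cells (squares) at 200 and 800 µM, ordered by the mean of the 8 (black bars). Pttg1, Nusap1 and Cenpa lie lowest and Ttk, Kif20b and Kifc1 highest, and fixed cells at 800 µM often hold the lowest value of a gene.

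At the low end, Pttg1 was at 19.1% and 24.6% in tubes at 200 µM and 6.68% and 14.6% at 800 µM, and in fixed cells at 13.8% and 15.7% at 200 µM and 9.19% and 10.7% at 800 µM. The 0.05 to 0.95 quantiles of the estimate were 5.10% to 8.79% in tubes at 800 µM, library A, and 12.1% to 17.5% in library B, so those 2 libraries differed beyond the interval of the estimate. Nusap1 averaged 22.9%, Cenpa 26.5% and Birc5 28.3%. At the high end, Kif20b was at 87.3% and 83.6% in tubes at 200 µM, 79.6% and 77.8% in tubes at 800 µM, 99.4% and 92.6% in fixed cells at 200 µM and 80.6% and 100.0% in fixed cells at 800 µM. Ttk was at 82.1% and 86.7% in tubes at 200 µM, 90.4% and 77.5% in tubes at 800 µM, 88.7% and 91.9% in fixed cells at 200 µM and 89.7% and 65.6% in fixed cells at 800 µM. Kifc1 reached 100% in 3 libraries, on 40 to 58 counts, so its place at the top is loosely set, and the order of the top 3 lay within the spread over libraries.

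Subunits of the same machine had unlike ratios. In the passenger complex, Incenp averaged 81.5%, Aurkb 55.9%, Cdca8 42.7% and Birc5 28.3%. Incenp lay above Birc5 in all 8 libraries, from 79.5% and 89.6% against 31.8% and 40.4% in tubes at 200 µM to 77.2% and 79.1% against 17.3% and 22.5% in fixed cells at 800 µM. Separase and its inhibitor stood far apart as well, with Espl1 at 75.2% and Pttg1 at 14.3%. The cyclins Ccnb1 and Ccnb2 averaged 66.2% and 28.8%, the kinases Aurka and Plk1 76.3% and 51.9%, and the kinesins Kif20b and Kif20a 87.6% and 31.9%. In the checkpoint, Ttk averaged 84.1% and Bub1, Bub1b, Bub3 and Mad2l1 36.8%, 33.2%, 36.5% and 34.9%. These differences between genes are a description and were not tested.

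Changes of the ratio between groups were tested on the logit scale with limma for the 32 members, of 5532 genes, with at least 100 counts in each labelled library. The median ratio of the 32 was above that of all genes tested in each of the 8 libraries, at 52.3% and 51.5% against 39.8% and 42.3% in tubes at 200 µM, and at 44.4% and 41.7% against 36.2% and 36.4% at 800 µM. In fixed cells it was 47.4% and 43.6% against 35.7% and 34.8% at 200 µM, and 32.6% and 38.2% against 26.0% and 32.1% at 800 µM. The ratio at 800 µM lay below that at 200 µM in 30 of 32 members in tubes (77.4% of all genes tested) and in 32 of 32 in fixed cells (88.8%). The median logit difference was −0.39 in tubes (all genes −0.20) and −0.49 in fixed cells (−0.32).

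No single member (0 of 32) passed the BH-adjusted threshold in limma in any of the 4 ratio comparisons, and of all 5532 genes 1 did (0.0181%), in the dose step in fixed cells. At an unadjusted p under 0.05 there were 3 of 32 for fixed cells against tubes at 200 µM (19.1% of all genes), 9 at 800 µM (20.3%), 5 for the dose step in tubes (8.44%) and 13 for the dose step in fixed cells (16.6%). No second tool was run on the ratio, and the posterior mean, the linear scale and 2 other count minimums also gave 0. Fixed cells against tubes had a median logit difference of −0.30 at 200 µM (all genes −0.19) and −0.40 at 800 µM (−0.31). Bub1b came closest to the threshold: 47.9% and 43.8% in tubes at 200 µM and 30.1% and 27.7% in fixed cells, a logit difference of −0.73 (SE 0.16, BH-adjusted p = 0.098) in limma. At 800 µM it was at 38.0% and 33.9% against 21.0% and 23.6% (−0.67, SE 0.16, BH-adjusted p = 0.119, in limma). Anln was at 47.7% and 46.3% in tubes and 22.9% and 28.1% in fixed cells at 800 µM (−0.96, SE 0.20, BH-adjusted p = 0.105, in limma), and Plk1 went from 58.3% and 57.2% at 200 µM to 36.3% and 41.2% at 800 µM in fixed cells (−0.77, SE 0.21, BH-adjusted p = 0.242, in limma). Some members passed in fixed cells against tubes at 800 µM and in the dose step in fixed cells when fixed 800 µM library B was left out. That leaves the library that stands apart as the only one of its group. Its median ratio over all genes tested was 26.0%, against 32.1% in library B. The share of all genes passing in that fit is not given here, so these calls are not read as a result about the members.

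Multiplying each level by its ratio splits the 43 genes into new and old RNA, here as sums in CPM per library. New RNA summed to 2127.5 and 2251.0 CPM in tubes at 200 µM, 1755.9 and 1752.2 at 800 µM, 2248.8 and 2409.0 in fixed cells at 200 µM and 1738.3 and 1846.8 at 800 µM. The new sums of the 2 procedures thus lay close together at each dose. Old RNA summed to 2076.8 and 1903.6 CPM in tubes at 200 µM, 2250.4 and 2174.3 at 800 µM, 2790.2 and 3002.6 in fixed cells at 200 µM and 3878.9 and 3193.9 at 800 µM. In these sums the higher level of fixed cells lay mainly in the old RNA, with the library that stands apart highest. A lower ratio in fixed cells was not particular to these 43 genes. The median ratio of all genes tested was 39.8% and 42.3% in tubes against 35.7% and 34.8% in fixed cells at 200 µM. At 800 µM it was 36.2% and 36.4% against 26.0% and 32.1%. Such sums were not made for other genes. For Cdk1 at 800 µM, mean new RNA was 128 CPM in tubes and 221 CPM in fixed cells, and old RNA 101 and 314 CPM. For Bub1b these were 13.8 and 16.4 CPM of new RNA, and 24.6 and 56.6 CPM of old RNA. These sums are descriptions; they inherit the errors of both values, and their differences were not tested.

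Members with a high ratio tended to have the lower log2 changes, less clearly so once members of few counts were left out. Across the 43 genes, Spearman's correlation between mean ratio and log2 change was −0.31 in tubes at 200 µM, −0.47 at 800 µM, −0.47 in fixed cells at 200 µM and −0.60 at 800 µM. Across the 32 members with at least 100 counts in each labelled library it was −0.11, −0.34, −0.42 and −0.51, against −0.24, −0.27, −0.31 and −0.39 across all 5532 such genes. For fixed cells against tubes without 4sU, where the ratio comes from other libraries, it was −0.43 across the 43, −0.20 across the 32 and −0.36 across the 5532 genes. Genes are not independent replicates, and the log2 changes with 4sU share libraries with the ratio. In fixed cells at 800 µM, the 3 genes of highest ratio, Ttk, Kif20b and Kifc1, had log2 changes of −0.75, −0.42 and −0.86, and the 3 of lowest ratio, Pttg1, Nusap1 and Cenpa, had 0.06, −0.34 and 0.05; none of these passed.

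Levels per kilobase of the deposited length, which can be set against each other between genes, spanned a wide range without 4sU. Cdc20 was highest, at 158 CPM per kilobase in tubes and 204 in fixed cells (means of 2 libraries). Top2a (108 and 119), Ube2c (99.8 and 158) and Birc5 (90.3 and 127) came next in tubes, with Cdk1 at 46.9 in tubes and 134 in fixed cells. Cdc25c (2.08 and 3.31), Espl1 (3.74 and 3.32) and Kif20a (4.40 and 10.2) were lowest in tubes. The sources used here do not give whether reads cover whole transcripts or their ends, so these levels depend on the deposited length being the right divisor. Of the 43 genes, 38 had a fractional count in at least 1 library, and the labels do not state how reads were divided between genes that share sequence.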

How the data were processed

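SLAM-seq of NIH-3T3 cells gave 12 libraries in 6 groups. Per the submitters' processing notes, cutadapt, Bowtie2 2.3.0 and STAR 2.7.10b were used. The role of each, the genome build and the ratio tool were not given in the sources used here. Deposited was 1 table. It holds the authors' expected counts per gene, per the file headers and values, which were here rounded to whole numbers. It also holds the new-to-total ratio of the 8 labelled libraries, a deposited fraction (maximum a posteriori, mean, 0.05 and 0.95 quantiles); deposited alpha and beta scores were not used in tests. The deposited length is in bases.

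Genes were kept by filterByExpr (minimum count 10, total 15), leaving 11080 genes and all 43 members. Levels were compared by edgeR 4.0.16 under R 4.3.3 (quasi-likelihood F test, TMM, 1 fit of 6 groups, BH adjustment over all genes at 0.05). CPM are per effective library size, except those of the cell type markers, which are per library total. Ratios were tested with limma 3.58.1 (trend) on the logit scale, held within 0.001 of 0 and 1, at genes with at least 100 counts in each labelled library. Alternatives were DESeq2 1.42.0, other scalings and filters, a replicate block and leaving out each library. The scripts were tested on simulated data. Coordinates and promoter windows are RefSeq's on GRCm38.p6.

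The members and lists were chosen with earlier results of these data known. Named were the members called in a comparison, others by role, the 3 highest and 3 lowest mean ratios and, of each pathway list, at most 4 called genes by smallest p; examples among these are given. Counts and ratios of few reads are less precise: counts of a member ran down to 14 in a library.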

Additional observations from a re-analysis of the deposited data

How the results depend on the processing

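In fixed cells against tubes without 4sU, 26 genes passed, 19 to 27 under other scalings, filters, tools and fits, and 18 to 21 with 1 library left out, where the lone library of a group is assumed to vary like the other groups. With 1 library left out, 13 to 17 passed at 200 µM and 16 to 23 at 800 µM. With 4sU the counts are small and move more. In tubes at 800 µM, 1 gene passed, against 4 with scaling on low-ratio genes, 2 with no filter, 4 with only the groups compared and 0 with any library left out. In tubes at 200 µM, 3 passed, against 4 with scaling on low-ratio genes, 4 with no filter and 1 with any library left out. In fixed cells at 200 µM, 1 passed, against 0 with the replicate block, 8 with only the groups compared and 0 with any library left out. In fixed cells at 800 µM, 3 passed, against 9 with scaling on low-ratio genes, 5 with no filter, 1 with only the groups compared and 0 to 4 with a library left out. For the difference between procedures at 200 µM, 0 passed, against 1 with no filter, 1 with only the groups compared and 1 with DESeq2. For the dose step in tubes, 0 passed, against 1 with no filter and 1 with DESeq2, and in fixed cells 0 to 2 with a library left out. For the ratio, 0 passed, against 0 to 7 for fixed cells against tubes at 800 µM and 0 to 5 for the dose step in fixed cells with a library left out. The causes of these shifts were not tested. No named gene changed the sign of a call.

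No difference between A and B that was shared by groups was seen. The A minus B differences of 2 groups correlated at −0.10 to 0.10 for counts and −0.02 to 0.08 for the ratio, over the 15 and 6 pairs of groups. Whether A and B were paired cultures cannot be told from this. With A and B as a replicate block, 26 genes passed in fixed cells against tubes without 4sU, and 3, 1, 0 and 3 in the 4 comparisons with 4sU.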
